A study of Mus musculus with 3 samples.

Results

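The 10 genes described here encode proteins that astrocytes release and that are known to act on synapses: the thrombospondins Thbs1, Thbs2, Thbs3 and Thbs4, the SPARC-family proteins Sparc and Sparcl1 (hevin), the glypicans Gpc4, Gpc5 and Gpc6, and the BMP-binding protein Chrdl1. They were taken by gene symbol from the deposited table, and 10 of its 19471 genes carried these symbols. RNA came from cortical astrocytes of wild-type (WT) mouse pups, isolated at postnatal day 1 and collected after 7 days of culture. The libraries form 1 group of 3 biological replicates, each named for a different pup, and the poly(A) libraries were stranded. Wild-type genotype, cortex, age and time in culture are shared by all 3, and no treatment is named in the labels beyond the word Ctrl in the sample descriptions, which also write P0 where the titles write P1. Without another age, genotype or cell type, the comparisons are between genes within the libraries and between the libraries.

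Astrocytes drive much of synapse formation through secreted matrix proteins. Thrombospondins promote structurally complete synapses that lack surface AMPA receptors, and they do so through the calcium channel subunit encoded by Cacna2d1. Hevin links adhesion proteins across the cleft, and its relative SPARC counters hevin. Glypicans 4 and 6, heparan sulfate proteoglycans held in the membrane by a lipid anchor until they are shed, recruit AMPA receptors to young synapses, whereas Chrdl1 promotes their later exchange for calcium-impermeable ones.

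The reads counted in the genes of the table came to 14380993, 25128038 and 9858626 in replicates 1, 2 and 3. Of 12 astrocyte markers, 12 averaged at least 10 normalized counts, as did 71.6% of all genes in the table, so this count alone says little. Their sums were 119318 to 141123 per library. Per kilobase, 10 of them were above the median gene averaging at least 10 (limma, adjusted p under 0.05). S100b was below it, at -0.66 on the log2 scale, and Slc1a2 was level with it, at 0.01. Other cells were present or could contribute. The 8 microglial markers all reached 10 and summed to 25657, 20225 and 17295 in replicates 1, 2 and 3. For fibroblasts, 7 of 8 markers reached 10, with sums of 6293 to 6811. The highest of these were Islr at a mean of 2691 and Ogn at 1658, while Lum stood at 2.20. Of 10 endothelial markers, 7 had a row in the table and 4 reached 10, with sums of 796 to 865. Most of that was Kdr at a mean of 690, while Pecam1 stood at 5.43. Of 8 mural markers, 7 had a row and 4 reached 10 (1326 to 1681), with Pdgfrb at 900, Notch3 at 581 and Kcnj8 at 1.01. For neurons, 5 of 8 reached 10 (773 to 1185), with Stmn2 at 669 and Snap25 at 2.51. Among 7 oligodendrocyte-lineage markers, 6 had a row and 5 reached 10 (556 to 849). Pdgfra, at a mean of 390, is counted both in this sum and in the fibroblast sum. Tie1, Cldn5, Emcn, Higd1b and Mog had no row and are in no sum. Sparc, Sparcl1, Thbs1, Thbs2 and Gpc6 are also made by vascular or connective tissue cells. Microglia had the largest marker sums of the other cell types. The part of any of these cells, microglia included, in the levels below was not tested. In bulk RNA, fewer cells of a type and less RNA per cell cannot be told apart.

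The 10 genes spanned more than 4 orders of magnitude. Sparc was by far the highest, Gpc4, Thbs1 and Sparcl1 were abundant, Thbs3, Gpc6, Chrdl1 and Thbs2 were moderate, and Thbs4 and Gpc5 lay near the limit of detection. Together they took 0.905% to 0.958% of a library's reads counted in the genes of the table, and Sparc alone 0.571% to 0.620%. Values are normalized counts, that is reads divided by a size factor for each library. Where genes are compared with each other, these are divided by the gene's merged exon length in kilobases. Means are given ± SD over the 3 libraries (n = 3). The median over the 10 genes was 154 normalized counts per kilobase, against 33.9 over the 19372 genes in the table that have a length.

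**Figure D1:**
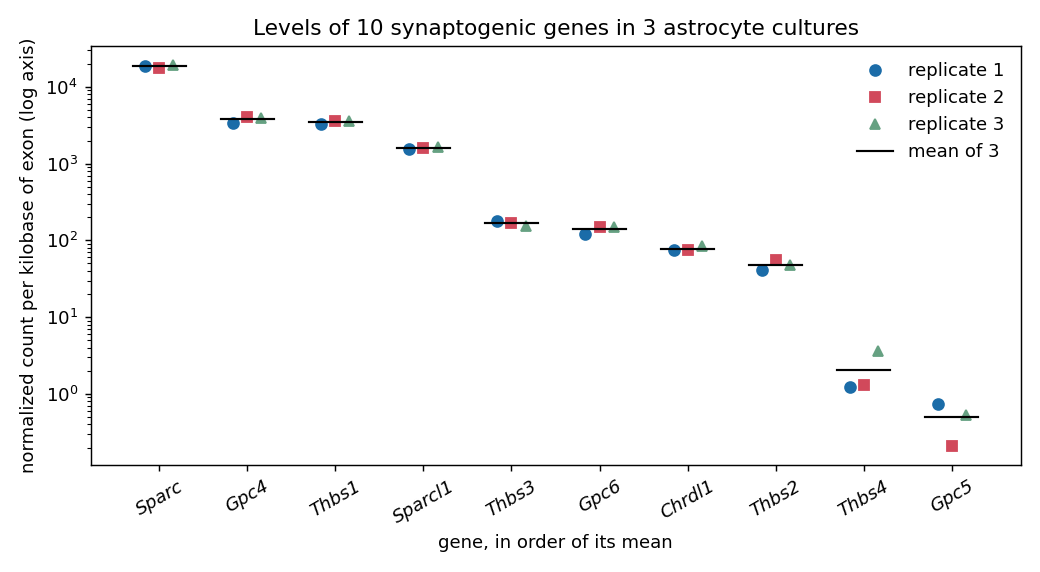
Normalized count per kilobase of exon (log axis) of each gene in each of 3 libraries, in order of the mean (black line). Points of a gene lie close together from Sparc, at a mean of 18716, down to Thbs2 at 48.3, and spread out for Thbs4 and Gpc5, which rest on 24 and 8 reads.

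Of the 10 genes, 6 had an entry in the RefSeq promoter table (build GRCm38.p6, 250 bases before to 50 after the transcript start), and the 2 highest and 2 lowest of these 6 are shown because their levels differ so widely. Capitals mark CG dinucleotides, the sites of DNA methylation in mammals. The windows lie on the minus strand at chr11:55420031-55420330 (Sparc), chrX:52164874-52165173 (Gpc4) and chr13:92794769-92795068 (Thbs4), and on the plus strand at chr14:115091965-115092264 (Gpc5). Sequences are from RefSeq, 5′ to 3′.
Sparc: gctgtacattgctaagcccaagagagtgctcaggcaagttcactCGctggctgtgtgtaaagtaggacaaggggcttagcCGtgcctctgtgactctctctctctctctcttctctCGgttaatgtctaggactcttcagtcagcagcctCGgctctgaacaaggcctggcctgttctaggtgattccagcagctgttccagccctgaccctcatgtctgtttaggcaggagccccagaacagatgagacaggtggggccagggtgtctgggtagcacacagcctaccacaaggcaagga
Gpc4: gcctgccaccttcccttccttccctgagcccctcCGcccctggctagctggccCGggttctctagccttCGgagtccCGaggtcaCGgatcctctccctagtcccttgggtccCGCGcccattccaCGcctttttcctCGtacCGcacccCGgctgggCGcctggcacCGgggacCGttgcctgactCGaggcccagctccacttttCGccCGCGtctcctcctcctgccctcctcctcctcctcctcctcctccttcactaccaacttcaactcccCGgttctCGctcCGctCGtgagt
Thbs4: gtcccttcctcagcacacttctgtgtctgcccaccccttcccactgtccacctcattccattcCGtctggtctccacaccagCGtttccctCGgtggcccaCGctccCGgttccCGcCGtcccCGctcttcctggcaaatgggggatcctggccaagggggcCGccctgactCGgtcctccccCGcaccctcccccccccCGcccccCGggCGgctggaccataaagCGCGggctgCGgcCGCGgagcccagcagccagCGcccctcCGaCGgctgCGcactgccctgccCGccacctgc
Gpc5: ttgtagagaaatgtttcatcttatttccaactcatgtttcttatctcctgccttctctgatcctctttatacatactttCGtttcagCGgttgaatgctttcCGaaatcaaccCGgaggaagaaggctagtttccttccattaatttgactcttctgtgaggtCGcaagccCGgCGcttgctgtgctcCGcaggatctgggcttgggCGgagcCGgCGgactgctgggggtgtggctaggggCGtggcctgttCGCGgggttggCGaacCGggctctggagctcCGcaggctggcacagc

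The start in the Sparc window lies 3103 bases inside the gene span given below, that of Gpc4 329 bases inside, and those of Thbs4 and Gpc5 at the end of the span. The Sparc window held 4 CG dinucleotides, and 62.0% of 32851 promoter windows of the same length held more. The Gpc4 window held 22 (21.5% held more), while the windows of the barely detected Thbs4 and Gpc5 held 24 (18.4% held more) and 17 (29.7% held more). The median window held 7, and 94.6% of all windows held at least 1. Of the other windows, that of Thbs3 held 8 and that of Thbs2 held 4. The motif TATAAA, searched on both strands, was found in the Gpc5 and Thbs2 windows and in 13.6% of all windows. The motif GGGCGG, searched likewise, was found in those of Gpc4, Thbs4, Gpc5 and Thbs3 and in 35.7% of all windows. These counts describe the letters only, since no chromatin or methylation was measured here.

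Thrombospondin transcripts were nearly all Thbs1. Thbs1 (ENSMUSG00000040152, chr2:118111876-118127133, plus strand, mm10) encodes a trimeric thrombospondin that also activates latent TGF-beta and inhibits angiogenesis. Its normalized counts were 19947, 21591 and 21877 in replicates 1, 2 and 3, a mean of 21138 ± 1042, which ranked 28 among all genes. Replicate 1 was the lowest by a small margin. Per kilobase, Thbs1 averaged 3481 ± 172.

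Thbs2 (ENSMUSG00000023885, chr17:14665500-14694235, minus strand) shares the trimeric form and the type 1 repeats of Thbs1. It stood at 289.6, 386 and 338, a mean of 338 ± 48.4, so that replicate 2 was the highest and replicate 1 the lowest. Thbs3 (ENSMUSG00000028047, chr3:89215180-89226837, plus strand), a pentameric thrombospondin without those repeats, stood at 867, 822 and 752, a mean of 814 ± 57.9, with replicate 1 the highest. Thbs3 shares 318 exonic bases, 6.59% of its exon length, with Mtx1 on the other strand (mean 329), and the strand setting of the counting is not given in the sources used here. Per kilobase, Thbs3 (168.7 ± 11.999) lay 3.51-fold above Thbs2 (48.3 ± 6.91), with no overlap between the libraries of the pair.

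Thbs4 (ENSMUSG00000021702, chr13:92751590-92794818, minus strand), also pentameric and known from injured brain and from muscle and tendon, was barely detected. It had 5, 9 and 10 reads in replicates 1, 2 and 3, or normalized counts of 4.07, 4.25 and 11.96. From the 24 reads in all, the level over the libraries was 5.73 with an exact 95% Poisson interval of 3.67 to 8.53, which covers counting error only.

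Divided by length, Thbs1 made up 94.1% ± 0.449 of the reads of the 5 genes of the family, Thbs3 4.57% ± 0.520, Thbs2 1.30% ± 0.143, Thbs4 0.0549% ± 0.0351, and Comp, the remaining pentameric thrombospondin of cartilage, 0.0185% ± 0.00975. Per kilobase, Thbs1 exceeded Thbs3 by 4.37 ± 0.17 on the log2 scale (20.7-fold) and Thbs2 by 6.18 ± 0.15 (72.5-fold), in 3 of 3 libraries. These differences were many times the spread between libraries, but an exact sign-flip test over 3 libraries cannot give a two-sided p below 0.25, so none is given for any pair.

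Sparc (ENSMUSG00000018593, chr11:55394500-55423183, minus strand), a collagen- and calcium-binding matricellular protein, had normalized counts of 71920, 67643 and 73120, a mean of 70894 ± 2879. It ranked 4 among all genes by normalized count and 9 per kilobase. Replicate 2 was the lowest, and the highest library exceeded it 1.08-fold. Sparcl1 (ENSMUSG00000029309, chr5:104079111-104113733, minus strand), the synaptogenic hevin, stood at 4553, 4675 and 4829, a mean of 4686 ± 138, the smallest relative spread of the 10 genes with a coefficient of variation of 2.95%.

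Per kilobase, the antagonist exceeded the synaptogenic protein 11.7-fold at the RNA level: the log2 ratio of Sparc to Sparcl1 was 3.61, 3.49 and 3.55 in replicates 1, 2 and 3. With the longest transcripts as lengths the ratio was 18.1-fold. Among the 8 genes of the wider family in the table, Sparc took 82.5% ± 1.07 of the length-corrected reads, the follistatin-like gene Fstl1 10.1% ± 0.846 and Sparcl1 7.04% ± 0.218. The calcium-binding modular genes Smoc1 and Smoc2 and the testican genes Spock1, Spock2 and Spock3 each took between 0.00499% and 0.203%. Fstl1, at a mean normalized count of 11258 ± 742, was the only one of these relatives that reached the level of Sparcl1.

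Gpc4 (ENSMUSG00000031119, chrX:52053021-52165252, minus strand) dominated the glypicans. Its normalized counts were 8953, 10673 and 10537, a mean of 10054 ± 956, with replicate 1 the lowest. Gpc6 (ENSMUSG00000058571, chr14:116925315-117976544, plus strand), its closest relative, stood at 783, 952 and 947, a mean of 894 ± 96.1, and again replicate 1 was the lowest. The log2 ratio of Gpc4 to Gpc6 per kilobase was 4.79, 4.76 and 4.75, a mean of 4.77 ± 0.02 or 27.3-fold, so the ratio varied far less than either gene. Its size depends on the length used, and was 17.6-fold with the longest transcripts and 11.3-fold undivided. The SD was the smallest among the pairs compared here, and it was singled out after the values were seen. The ratio ran from 27.0-fold to 27.7-fold over the libraries. From all 3774 reads of Gpc6, the exact Poisson interval of its level was 873 to 931 around 902, which is wider in relative terms. The small SD is therefore below what read sampling allows to be resolved, and a fixed ratio cannot be concluded from it.

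Gpc5 (ENSMUSG00000022112, chr14:115092215-116525179, plus strand), which is abundant in mature astrocytes in vivo, was at the limit of detection in these cultures. It had 4, 2 and 2 reads in replicates 1, 2 and 3, and from these 8 reads the normalized level was 1.91 with an exact 95% Poisson interval of 0.825 to 3.77. A count of 0 would allow 2.44, 1.42 and 3.59 normalized counts in the 3 libraries, and the values in replicates 2 (0.943) and 3 (2.39) lay under those limits.

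Divided by length, Gpc4 took 90.5% ± 0.843 of the reads of the 6 glypican genes, and Gpc6 3.32% ± 0.0769. Gpc1, the glypican of neural stem cells and of many tumours, took 5.24% ± 0.928, more than Gpc6, at a mean normalized count of 1124 ± 133. Gpc3, a regulator of embryonic growth, took 0.852% ± 0.0761, Gpc2, a glypican of developing neurons, 0.0957% ± 0.0167, and Gpc5 0.0122% ± 0.00731. The 2 glypicans known to recruit AMPA receptors thus ranked 1 and 3 of the 6.

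**Figure D2:**
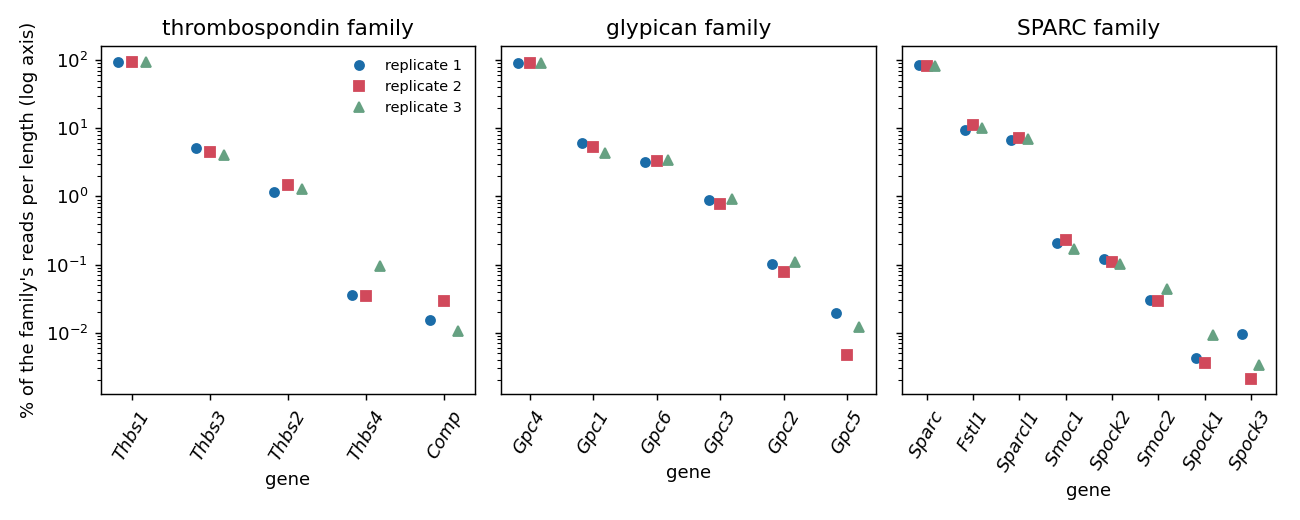
Share of the length-corrected reads of each family (log axis) for each gene in each of 3 libraries. Thbs1, Gpc4 and Sparc hold 94.1%, 90.5% and 82.5% of their families, and the highest other gene of each holds 4.57% (Thbs3), 5.24% (Gpc1) and 10.1% (Fstl1).

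Chrdl1 (ENSMUSG00000031283, chrX:143285674-143394262, minus strand), a secreted BMP antagonist that astrocytes make as synapses mature, stood at 503, 499.6 and 573, a mean of 525 ± 41.2, with replicate 3 the highest. Per kilobase it averaged 77.7 ± 6.10, and Gpc4 exceeded it by 5.61 ± 0.14 on the log2 scale (48.7-fold), or 29.5-fold with the longest transcripts and 19.1-fold undivided. Its relative Chrd, which encodes chordin, stood at 52.4 ± 3.19, and Chrdl2 was not analysed here.

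In order of level per kilobase the genes were Sparc (18716 ± 760.1), Gpc4 (3793 ± 361), Thbs1 (3481 ± 172), Sparcl1 (1595 ± 47.0), Thbs3 (168.7 ± 11.999), Gpc6 (139 ± 15.0), Chrdl1 (77.7 ± 6.10), Thbs2 (48.3 ± 6.91), Thbs4 (2.05 ± 1.37) and Gpc5 (0.493 ± 0.262). The order was the same in each library. Gpc4 and Thbs1 were close: the ranges of their libraries overlapped, while within each library Gpc4 was the higher, by 0.04, 0.18 and 0.14 on the log2 scale (mean 0.12 ± 0.07). Thbs3 exceeded Gpc6 by 0.56, 0.20 and 0.08 within the libraries, a mean of 0.28 ± 0.25 that is hardly more than its SD. Each of these neighbours changed places when values were not divided by length, and Thbs3 and Gpc6 did so also with the length of the longest transcript. The values of Thbs4 and Gpc5 rest on only 24 and 8 reads. Not divided by length, the Poisson intervals of their levels overlap (3.67 to 8.53 and 0.825 to 3.77). Per kilobase, the ranges of their libraries did not overlap, and Thbs4 was the higher in 3 of 3. The largest gap between neighbours with means above 10 was that from Sparcl1 to Thbs3, 3.24 ± 0.15 on the log2 scale or 9.47-fold, and 5.77-fold when not divided by length.

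Each gene was then set against the typical gene of its own library. The log2 level per kilobase (with a pseudocount of 1) minus the median over tested genes was fitted with limma across the 13902 genes that averaged at least 10 normalized counts and have an exon length, and p-values were adjusted by the Benjamini-Hochberg method over all of them. Thbs4 and Gpc5 fell under that mean and were not tested. Of the 8 tested genes, 6 were called above the median gene and 1, Thbs2, was called lower (threshold 0.05). Over all tested genes the same call was made for 45.5% above and 44.8% below, so a call by itself says little, and the sizes carry the comparison.

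Sparc lay 8.01 ± 0.10 (SE) above the median gene on the log2 scale (limma, adjusted p = 1.25e-09). Gpc4 lay 5.71 ± 0.09 above it (limma, adjusted p = 1.26e-09), Thbs1 5.59 ± 0.08 (limma, adjusted p = 1.25e-09) and Sparcl1 4.46 ± 0.07 (limma, adjusted p = 1.29e-09). These 4 genes were at the 98.1 percentile of detected genes or higher. Thbs3 at 1.23 ± 0.08 (limma, adjusted p = 1.14e-06) and Gpc6 at 0.95 ± 0.09 (limma, adjusted p = 1.03e-05) were modestly above.

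Chrdl1 was level with the median gene, at 0.12 ± 0.09 (limma, adjusted p = 0.23), but other settings called it above. Undivided by length the difference was 0.60 (limma, adjusted p = 3.45e-05), with the longest transcript 0.38 (limma, adjusted p = 0.00253), and against all genes averaging at least 1 it was 0.84 (limma, adjusted p = 7.39e-05). Thbs2 lay at -0.56 ± 0.11, below the median gene in 3 of 3 libraries (limma, adjusted p = 0.00113). Undivided by length it was at -0.04 and the call ended (limma, adjusted p = 0.706), and against all genes averaging at least 1 it was at 0.15 (limma, adjusted p = 0.215). The spread in these p-values is pooled over genes, so they do not measure the error of each gene alone.

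**Figure D3:**
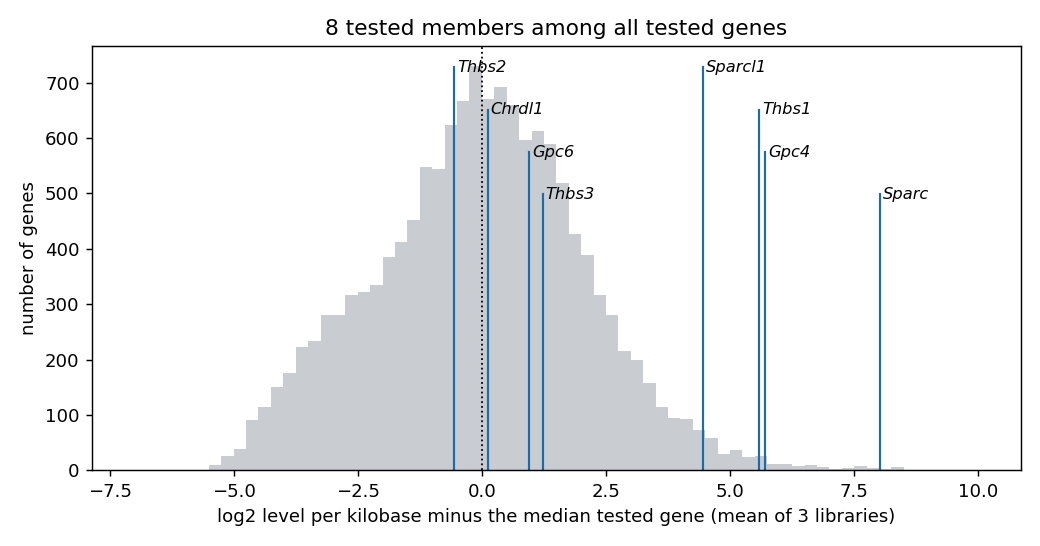
Distribution of the log2 level per kilobase relative to the median tested gene (grey, number of genes) with the 8 tested members as vertical lines whose heights only separate the names. Sparc, Gpc4, Thbs1 and Sparcl1 stand in the right tail at 4.46 or more, and the other 4 lie between -0.56 and 1.23.

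Differences between the cultures were small. The SD of log2 values over the 3 libraries ran from 0.04 for Sparcl1 to 0.21 for Thbs2 among the 8 tested genes, with a median of 0.11, against a median of 0.14 over 10571 genes averaging at least 100. Against genes of similar mean (0.5 to 2 times their own), Sparcl1 was at the 10.02 percentile of spread and Thbs2 at the 72.6 percentile.

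Set against read sampling alone, 6 of the 8 tested genes differed between libraries (chi-square, expected reads in proportion to library size, adjusted over 13941 genes), where 55.4% of all tested genes did. The adjusted p was 3.41e-96 for Sparc, 1.31e-44 for Gpc4, 6.23e-20 for Thbs1, 2.75e-05 for Gpc6, 0.000223 for Thbs2 and 0.0225 for Thbs3. It was 0.0556 for Chrdl1, which was called among genes averaging at least 100 (adjusted p = 0.0480). For Sparcl1 it was 0.0694, and Sparcl1 was called with the authors' size factors (adjusted p = 0.0335) and without replicate 2 (adjusted p = 0.0361). The small p-values of the abundant genes reflect their many reads, since the highest library exceeded the lowest only 1.08-fold for Sparc and 1.19-fold for Gpc4, compared with 1.33-fold for Thbs2.

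Fewer calls were made with any library left out. Replicate 1 was the lowest library for 6 of the 10 genes, Thbs1, Thbs2, Thbs4, Sparcl1, Gpc4 and Gpc6. The share of all genes that were lowest in replicate 1 was not counted, so the 6 cannot be called particular to these genes. Thbs4 had only 5 reads there, and Sparcl1 was not called (chi-square, adjusted p = 0.0694). Without replicate 1, the genes called were 2, Sparc and Chrdl1. The share over all tested genes fell from 55.4% to 35.8% (40.2% without replicate 2 and 37.2% without replicate 3). The adjusted p of Gpc4 and Gpc6 became 0.693 and 0.998 in the chi-square test. Replicate 1 was also the library with the highest sum of microglial markers, 1.48-fold above replicate 3, and with the lowest share of mitochondrial reads, 0.723% against 1.14% and 1.07% in replicates 2 and 3. The part of either in the differences was not tested. The call of Sparc rested on replicate 2, the lowest for that gene: without it the adjusted p was 0.181. Thbs2 lost its call without replicate 1, its lowest library (chi-square, adjusted p = 0.141), or without replicate 2, its highest (adjusted p = 0.127). Thbs3 lost its call without replicate 1 (chi-square, adjusted p = 0.156) or replicate 3 (adjusted p = 0.171).

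**Figure D4:**
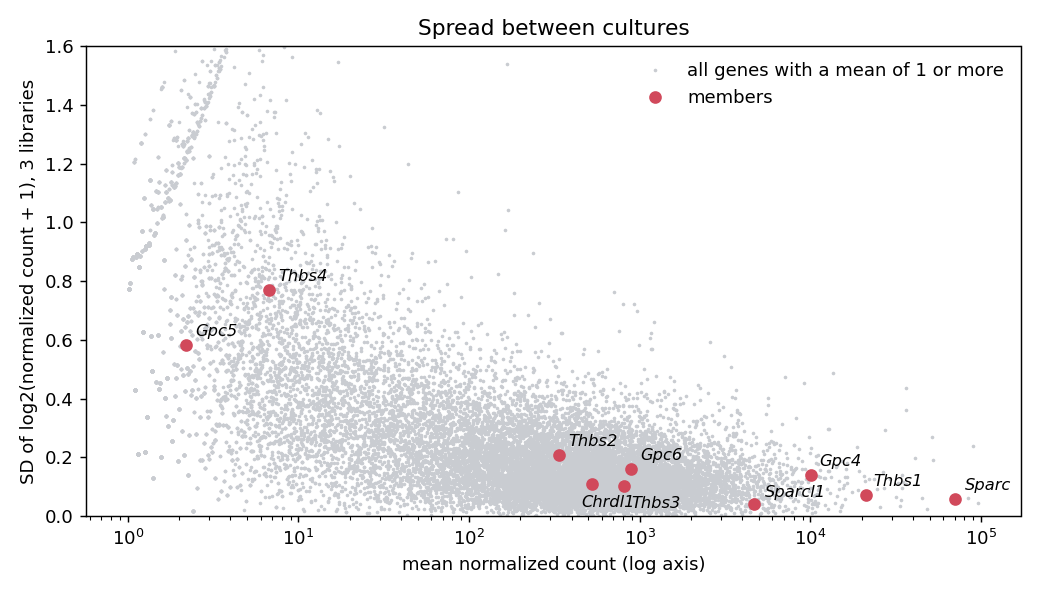
SD of log2(normalized count + 1) over 3 libraries against the mean normalized count (log axis) for genes averaging at least 1 (grey) and the members (red). The members with a mean above 100 lie at 0.04 to 0.21, inside the cloud of other genes, and 75 of 17896 genes lie above the top of the axis at 1.6.

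Proteins that receive or process these signals were counted from lists of their known partners, most of which act on neurons. Of all genes, 71.6% averaged at least 10. Of all tested genes, 45.5% were called above the median gene per kilobase and 44.8% below. The counts of each list given here are to be read against these shares and say little by themselves. All 10 thrombospondin receptor genes averaged at least 10, and 3 were above and 6 below the median gene per kilobase (limma, adjusted p under 0.05). The highest were the endocytic receptor gene Lrp1, at a normalized count of 10236 ± 677 and 3.00 above the median gene on the log2 scale, and the integrin genes Itgb1 (8906 ± 1116, 4.91 above) and Itgav (2005 ± 264, 1.37 above). Cacna2d2 was the lowest at 23.4 ± 8.83. Cacna2d1, the receptor through which thrombospondins are known to induce synapses, is outside the rule of highest and lowest and is given for its role: it stood at 252 ± 46.1 and -1.78 relative to the median gene.

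Of the 5 partners and proteases of the SPARC pair, 4 were tested, 1 above and 3 below. Stab1, a scavenger receptor for SPARC known from macrophages and endothelium, was the highest at 3739 ± 898, with 4630, 3752 and 2834 in replicates 1, 2 and 3. The sum of the microglial markers had the same order, though the marker Aif1 did not (604, 439 and 456). Which cells the Stab1 reads came from was not tested. The neuroligin gene Nlgn1 stood at 371 ± 61.6 and lay below the median gene per kilobase, at -1.35. The metalloproteinase gene Mmp3 had 2 reads in all.

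Of the 8 glypican partners, 6 were tested, 3 above and 3 below. Those above were the LAR-family phosphatase genes Ptprf at 6452 ± 442 (3.28 above) and Ptprs at 5957 ± 724 (2.45 above), which encode receptors of heparan sulfate proteoglycans, and the AMPA receptor subunit gene Gria1 at 1546 ± 211 (1.82 above). Gpr158, a synaptic receptor for Gpc4, was near the limit with 16 reads in all. Of 20 listed genes that build and edit heparan sulfate chains, 19 were analysed and all 19 averaged at least 10, as did 71.6% of all genes in the table. Of these, 11 were above and 6 below the median gene. Its highest were the sulfotransferase gene Ndst1 at 7706 ± 356 (3.69 above), the chain-initiating gene Extl3 at 2713 ± 208 (2.63 above) and the extracellular sulfatase gene Sulf2 at 2471 ± 197 (2.54 above), and Hs6st3 was the lowest at 12.8 ± 3.67.

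Of the 13 BMP ligands, receptors and modulators, which bear on Chrdl1, 11 were tested, 4 above and 6 below. Bmp6 was the highest at 3042 ± 186 (3.43 above), followed by the receptor gene Bmpr1a at 2931 ± 486 (2.66 above) and the procollagen and chordin protease gene Bmp1 at 1857 ± 151 (1.54 above), while Bmp5 had 2 reads in all. Among 14 further astrocyte genes tied to synapses, 7 were above and 5 below. The lipoprotein gene Apoe, at 8.36 above the median gene, was the only one of them above Sparc per kilobase. Not divided by length, Apoe (51612 ± 10042) lay below Sparc (70894 ± 2879), so that order depends on the length used. After Apoe came the matrix genes Tnc at 6336 ± 658 (3.49 above) and Ncan at 3987 ± 590 (2.93 above). The cytokine gene Il33 was the lowest at 22.0 ± 3.73. Of the 11 relatives of the 10 genes in the table, 9 were tested, Fstl1 (4.98) and Gpc1 (1.59) above, and Gpc3 (-0.99), Gpc2 (-3.87), Smoc1 (-0.63), Smoc2 (-3.06), Spock1 (-5.02), Spock2 (-1.48) and Chrd (-2.95) below. Comp and Spock3 fell under the mean of 10, with 10 and 26 reads in all.

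**Figure D5:**
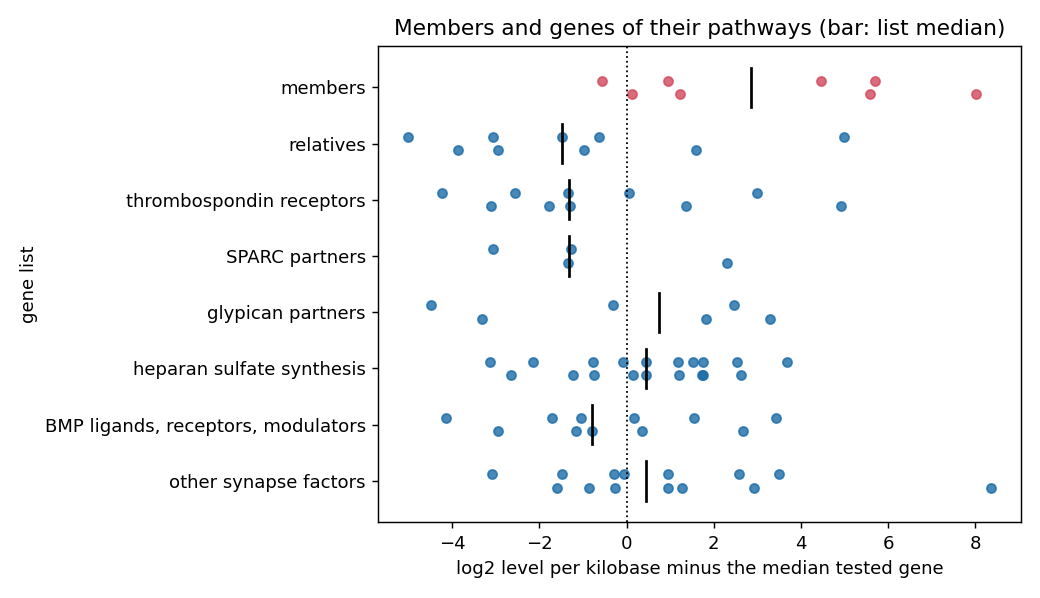
Log2 level per kilobase relative to the median tested gene for the tested members (red) and the tested genes of 7 partner lists (blue), with each list's median as a bar. The 8 tested members have a median of 2.84, and the partner lists have medians between -1.48 for relatives and 0.75 for glypican partners. These medians leave out untested genes, among them Thbs4 and Gpc5. With untested genes included, the 10 members had a median of 154 normalized counts per kilobase. The partner lists then had medians between 8.38 for relatives and 104 for other synapse factors.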

How the data were processed

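Poly(A) RNA of 3 cultures was sequenced. The authors deposited a normalized signal (normalized counts) for each of 19471 genes. The tool DESeq2 and build mm10 are named, per the submitters' processing notes, without their role. Which aligner, counter, strand setting and annotation they used is not given in the sources used here. Every value was a whole multiple of 1 read within 0.05 reads (100% of values), so the deposited signal is read counts divided by 1 factor for each library, and whole reads were recovered. With a single group, no count model has a contrast to test. GENCODE vM21, on the same build, gave positions and merged exon lengths for 19372 genes (99.5%). In members, shared 50-base stretches with other genes were found only for Sparc (0.601%) and Gpc5 (0.0682%), and Thbs1 and Gpc5 overlap exons of other genes on the opposite strand (208 and 107 bases).

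Genes averaging at least 10 were tested by an intercept-only limma fit with a trended prior and, given at least 30 reads, by chi-square over libraries; adjusted p under 0.05 was called. Both were tested on simulated data. Members, lists and tests were chosen with earlier results of these data known. All members and relatives are named, and of each other list the 3 highest and the lowest gene, except 1 gene that is not reported here. Alternatives changed length, pseudocount, filter, scaling, prior and libraries. List genes without a row were not analysed here. Each library is labelled with another pup, and nothing further says how the cultures were kept apart. The limma p-values rest on the spread between these samples, pooled over genes. The chi-square p-values set reads against read sampling alone. Neither speaks for cultures beyond these samples. Python 3.11.15, SciPy 1.17.1, pandas 2.3.3, matplotlib 3.10.9, R 4.3.3, limma 3.58.1 and edgeR 4.0.16 were used.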

Additional observations from a re-analysis of the deposited data

How the results depend on the processing

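The number of genes above the median gene was 6 or 7 under every alternative run. The number below was 0 without division by length and 2 with a mean filter of 1, where Thbs4 and Gpc5 enter, the median gene is lower and Thbs2 moved to 0.15 (limma, adjusted p = 0.215). The number differing between libraries ran from 2 to 5 when 1 replicate was left out, and was 6 or 7 otherwise, where the share over all tested genes ran from 35.8% to 40.2% and from 46.9% to 65.8%. The share of Thbs1 was 94.8% of undivided reads and 93.2% with the longest transcript, that of Gpc4 82.4% and 87.6%, and that of Sparc 81.3% and 86.6%; leaving out a replicate gave 93.8% to 94.3%, 90.1% to 90.9% and 82.0% to 83.1%. Without division by length 6 of 10 genes kept their place in the order, and with the longest transcript 8. Depth limits what can be said of Thbs4 and Gpc5. No paired analysis was possible because there is a single group.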
